A study of Homo sapiens with 36 samples.

Results

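Transcription and splicing factors (10 genes) that set epithelial or mesenchymal identity were followed in H446 cells. H446 is a long-used human line from small-cell lung cancer, of the SCLC-N subtype that expresses the neural factor NEUROD1. The members were listed by name: the 6 inducers of the epithelial-mesenchymal transition (EMT) ZEB1, ZEB2, SNAI1, SNAI2, TWIST1 and PRRX1, and the 4 epithelial regulators GRHL2, OVOL2, ESRP1 and ESRP2. Of these 10 genes, 8 have a row among the 19014 genes of the table of normalized counts, and OVOL2 and ESRP2 were read from the FPKM table of 57820 genes. NEUROD1 knockout clones (named 12, 15 and 2-1, all 3 labelled with 1 guide RNA) were set against 3 control clones (named 3, 10 and 13), which carry a guide that targets no gene and which the labels call WT. Each clone received 1 µM JQ1, an inhibitor that keeps BET bromodomain proteins off acetylated chromatin, or its solvent DMSO for 24 h, with 3 libraries per clone and treatment. Each genotype is thus 3 clones of 1 line, and a difference between genotypes is read against the differences between these clones. The replicate for genotype was the clone, so levels are means over 3 clones ± SD (n = 3), and a difference is a log2 fold change with its standard error (SE).

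In the epithelial-mesenchymal transition, cells lose junctions and polarity and take on a motile, matrix-producing state. ZEB1, ZEB2, SNAI1 and SNAI2 are zinc-finger repressors that bind E-boxes, short motifs of the form CANNTG, in epithelial genes such as the gene of E-cadherin. TWIST1 is a basic helix-loop-helix factor that also binds E-boxes, and PRRX1 is a homeodomain factor of embryonic mesenchyme. On the other side GRHL2 activates junction genes and represses ZEB1, OVOL2 represses ZEB genes, and ESRP1 and ESRP2 are RNA-binding proteins that impose epithelial splicing. NEUROD1 is itself a basic helix-loop-helix factor that binds E-boxes.

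Genes are placed by GENCODE 29 on GRCh38, matched by gene identifier, although the deposited values were made on hg19. ZEB2 (ENSG00000169554) lies on the minus strand of chromosome 2 from 144364364 to 144524583, and PRRX1 (ENSG00000116132) on the plus strand of chromosome 1 from 170662728 to 170739419. ZEB1 (ENSG00000148516) lies on the plus strand of chromosome 10 from 31318495 to 31529814. RefSeq promoter windows (GRCh38.p14, 250 bases before to 50 bases after a transcription start) were at hand for 3 of the members. They are shown because ZEB2 and PRRX1 carried the largest JQ1 changes among the 6 members that passed the filter on low values and ZEB1 a small one in the same direction. Capitals mark E-boxes (CANNTG, which reads the same on both strands); a match is a description and not a binding site.
ZEB2, chr2:144520070-144520369, minus strand: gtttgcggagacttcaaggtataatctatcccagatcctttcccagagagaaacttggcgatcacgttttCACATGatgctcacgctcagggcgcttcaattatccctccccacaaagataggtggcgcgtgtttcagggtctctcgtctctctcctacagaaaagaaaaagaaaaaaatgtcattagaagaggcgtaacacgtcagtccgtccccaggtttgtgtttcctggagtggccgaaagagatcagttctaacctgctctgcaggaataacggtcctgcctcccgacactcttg
PRRX1, chr1:170663881-170664180, plus strand: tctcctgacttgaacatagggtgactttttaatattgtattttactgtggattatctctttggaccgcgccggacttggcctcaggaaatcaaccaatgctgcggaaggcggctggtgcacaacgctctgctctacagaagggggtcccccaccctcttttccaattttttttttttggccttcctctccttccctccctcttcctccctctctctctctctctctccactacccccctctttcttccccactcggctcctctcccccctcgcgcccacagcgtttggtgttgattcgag
ZEB1, chr10:31318966-31319265, plus strand: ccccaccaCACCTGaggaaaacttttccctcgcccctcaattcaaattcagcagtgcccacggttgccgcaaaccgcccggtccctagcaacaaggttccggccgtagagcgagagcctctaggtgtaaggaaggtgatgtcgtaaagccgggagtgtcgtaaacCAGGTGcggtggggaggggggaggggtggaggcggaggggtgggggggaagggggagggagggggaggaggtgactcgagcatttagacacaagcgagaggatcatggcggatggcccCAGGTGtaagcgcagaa
The ZEB2 window held 1 E-box and the PRRX1 window 0. The ZEB1 window shown is 1 of 7 listed for that gene and was picked because it holds 3 E-boxes, all of them CAGGTG or its reverse complement CACCTG. Another of the 7 also holds 3 E-boxes, of the forms CATGTG and CAGCTG, and others hold 0. The core CAGGTG is one that ZEB and SNAIL proteins are known to bind, and E-boxes of any kind occurred in 68.7% of 34943 such windows, against 20.6% for CAGGTG on either strand. The shares for CAGATG and CAGCTG, cores that neural helix-loop-helix factors are known to bind, were 14.7% and 17.9%. None of the 3 windows shown holds either, but 3 of the other 6 ZEB1 windows hold 1 of them.

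The 35 libraries used held 13282337 to 18890506 reads on the genes of the table, with a median of 16176503. NEUROD1 ran from 0 to 6.60 normalized counts in knockout libraries with DMSO and from 5134 to 6523 in control libraries with DMSO, so the labels held in every library. The summed level of the 6 neuroendocrine markers listed was 2408 to 4809 in knockout against 19658 to 24906 normalized counts in control libraries with DMSO. HEXIM1, a transcript known to rise on BET inhibition, was higher with JQ1 by 1.96 (SE 0.09, adjusted p = 7.11e-06) in knockout and by 2.22 (SE 0.09, adjusted p = 6.30e-06) in control clones on the log2 scale. A further library, knockout clone 12 with JQ1, replicate 1, stood apart. It held 31825795 reads and transcripts of other tissue, with CEACAM6 of glandular epithelium at 46010 and the surfactant gene SFTPA2 at 12390 normalized counts. It was left out of every level and test below, and its values are given with the epithelial regulators. Control clone 13 with JQ1, replicate 1, held a trace of the same transcripts (CEACAM6 at 80.4, SFTPA2 at 23.5), and results that turn on it are given with and without it. In bulk RNA, fewer cells with a transcript and less of it per cell cannot be told apart.

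Of the members, 6 passed the filter on low values (9 or more of the 35 libraries with 10 or more normalized counts) and were tested with limma among 15711 genes, and these are the EMT inducers. SNAI2 passed it only through libraries of knockout clones 12 and 2-1, where it is high. Among the epithelial regulators, GRHL2 and ESRP1 fell short of the filter and OVOL2 and ESRP2 are not in that table. Per gene length, in FPKM, PRRX1 was the most abundant member in knockout clones with DMSO at 70.0 ± 44.4, followed by ZEB1 at 28.4 ± 11.3, ZEB2 at 12.3 ± 5.03, SNAI2 at 3.74 ± 5.06, TWIST1 at 3.35 ± 0.539 and SNAI1 at 2.57 ± 1.10. ESRP1 at 0.571 ± 0.231, GRHL2 at 0.186 ± 0.179, OVOL2 at 0.0756 ± 0.0510 and ESRP2 at 0.0322 ± 0.0195 closed that order. The place of GRHL2 is loose, since its 9 libraries ran from 0 to 0.70 FPKM (median 0.01) on 0 to 17 reads each. Control clones with DMSO had PRRX1 at 72.0 ± 19.4 FPKM, ZEB2 at 52.1 ± 6.49, ZEB1 at 31.3 ± 6.69, TWIST1 at 8.28 ± 1.83, SNAI1 at 3.48 ± 0.974, SNAI2 at 0.0578 ± 0.0916 and the 4 epithelial regulators at 0.0478 or less. In knockout clones the SD ranges of every neighbouring pair from PRRX1 down to SNAI1 overlap. In control clones those of PRRX1 and ZEB2 overlap, while ZEB2 and ZEB1 lie apart.

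The comparison of knockout with control clones asks which of these factors differ where NEUROD1 is lost. With DMSO, 2 of the 6 members tested were lower in knockout clones, where 6.26% of all genes tested were lower, 6.29% were higher and 12.5% were called in either direction. The 2 were ZEB2 and TWIST1, and the median log2 fold change of the 6 was -0.36, against 0.01 over all genes tested. SNAI2 had the largest fold change of the 6 and missed the threshold. With JQ1, 1 of the 6, ZEB2, was lower in knockout clones, where 5.57% of all genes were lower and 11.2% were called in either direction.

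ZEB2 ran from 590.0 to 1368 normalized counts with a median of 638.1 over the 9 knockout libraries with DMSO, against 3161 to 3868 with a median of 3382 over the 9 control libraries. The groups did not overlap, and within the knockout group clone 2-1 stood above the other 2 clones. The clone means were 849.5 ± 391.9 in knockout and 3472 ± 333.7 in control clones, a log2 fold change of -2.12 (SE 0.30, adjusted p = 0.00648). With JQ1 ZEB2 stood at 342.6 ± 101.1 in knockout and 1202 ± 317.1 in control clones, again without overlap, a log2 fold change of -1.82 (SE 0.27, adjusted p = 0.00661). Leaving out any clone or replicate number left ZEB2 lower and past the threshold with both treatments.

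ZEB1, the other ZEB repressor, spanned 1262 to 2525 normalized counts in knockout libraries with DMSO, with a median of 1535, against 1602 to 2257 in control libraries, with a median of 1788. The groups overlapped, with knockout clone 12 the highest of all 6 clones at 2483 and knockout clone 15 the lowest at 1287. The log2 fold change was -0.13 with DMSO (SE 0.26, adjusted p = 0.805) and -0.20 with JQ1 (SE 0.23, adjusted p = 0.643).

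**Figure D1:**
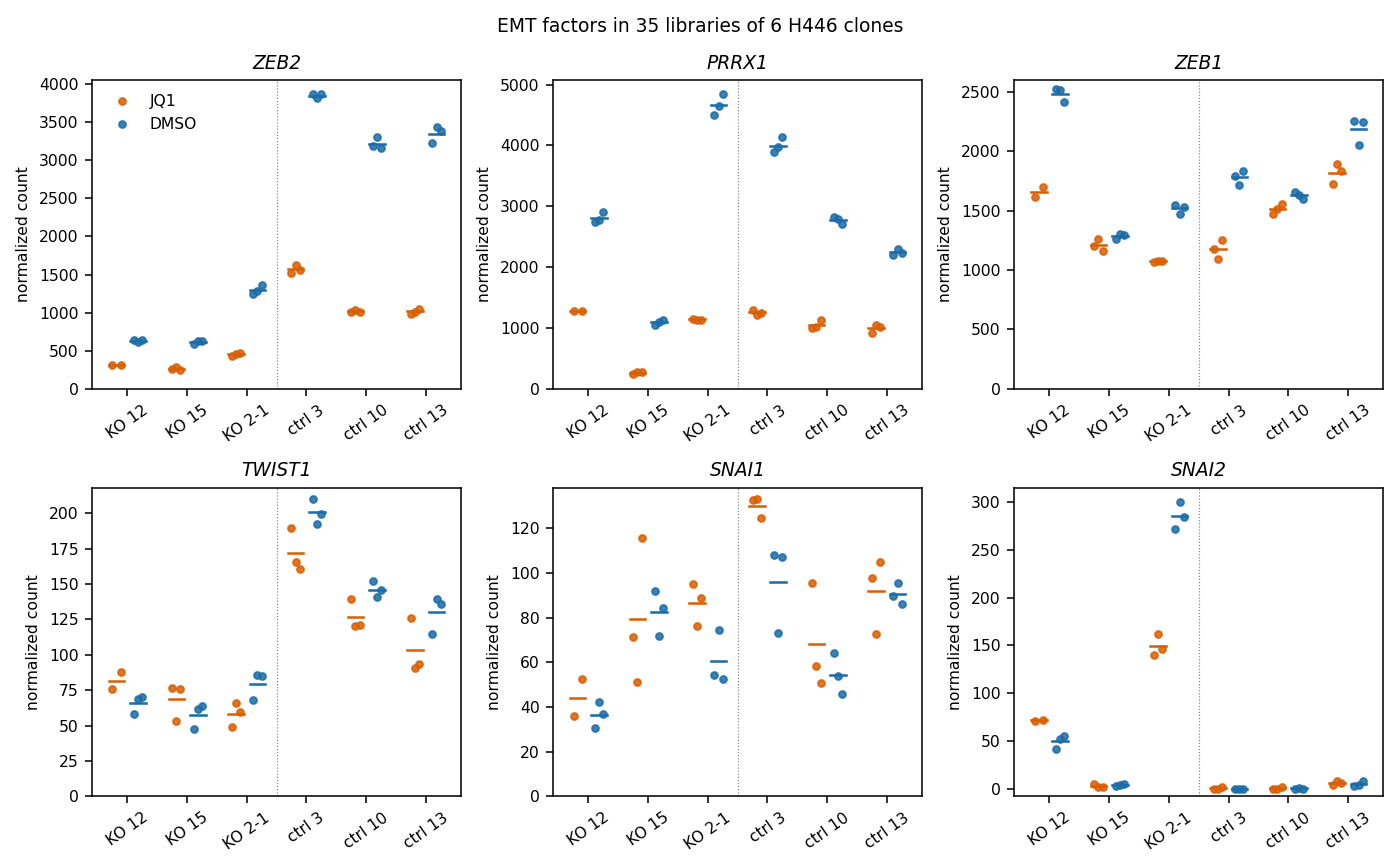
Normalized counts (y axes, linear, a separate scale per gene) of the 6 EMT inducers tested in each of 35 libraries, by clone (x axes; KO, knockout; ctrl, control) and treatment (JQ1 orange, DMSO blue); bars are means of a clone and treatment. ZEB2 with DMSO lies between 590.0 and 1368 in knockout and between 3161 and 3868 in control clones, and SNAI2 is high in knockout clones 12 and 2-1 and near 0 in the rest.

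SNAI2, the gene of the repressor SLUG, was high in some knockout clones and near 0 in the others. Knockout clone 2-1 with DMSO held 272.2, 300.2 and 284.6 normalized counts, knockout clone 12 held 42.0, 52.0 and 55.1, and knockout clone 15 held 2.78, 3.89 and 5.08. Control clone 13 held 2.75, 3.87 and 7.99, control clone 10 held 0, 0.976 and 0, and control clone 3 was listed at 0 in its 3 libraries. Knockout clone 15 was therefore within the range of control clone 13, and the groups overlapped. The clone means were 113.1 ± 151.2 in knockout and 1.73 ± 2.72 in control clones, a log2 fold change of 4.44 (SE 1.48, adjusted p = 0.104). Without knockout clone 15 the log2 fold change was 5.98 (adjusted p = 0.0272). With JQ1 the means were 74.5 ± 73.2 in knockout and 2.40 ± 3.06 in control clones, a log2 fold change of 3.82 (SE 1.40, adjusted p = 0.135), and 5.45 without knockout clone 15 (adjusted p = 0.0156). Both fits without clone 15 drop the knockout clone at the control level. They show how far the result turns on that clone and cannot decide on genotype. DESeq2, which called 20.9% of genes with DMSO and 18.5% with JQ1, put SNAI2 past the threshold with both treatments (adjusted p = 0.0173 with DMSO and 0.000753 with JQ1), while edgeR, which called 11.6% and 10%, did not (adjusted p = 0.0958 and 0.0907).

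SNAI1, the gene of the repressor SNAIL, had 30.8 to 91.8 normalized counts in knockout libraries with DMSO and a median of 54.4, against 45.8 to 108.0 and a median of 85.9 in control libraries. The groups overlapped. Clone means were 60.0 ± 23.1 in knockout and 80.4 ± 22.6 in control clones, a log2 fold change of -0.45 (SE 0.39, adjusted p = 0.522), and with JQ1 the log2 fold change was -0.48 (SE 0.38, adjusted p = 0.476).

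TWIST1 ranged from 47.3 to 85.6 normalized counts in knockout libraries with DMSO, with a median of 67.8, against 114.6 to 209.8 in control libraries, with a median of 145.4. No knockout library reached the lowest control library. Clone means were 67.6 ± 11.0 in knockout and 158.8 ± 37.0 in control clones, a log2 fold change of -1.21 (SE 0.27, adjusted p = 0.0301). That call was lost without control clone 3, 10 or 13 or knockout clone 12 or 15, with adjusted p from 0.0535 to 0.110 and log2 fold changes from -1.35 to -1.03. With JQ1 TWIST1 stood at 69.5 ± 11.8 in knockout and 134.0 ± 34.8 in control clones, again with no overlap between libraries, a log2 fold change of -0.92 (SE 0.29, adjusted p = 0.0899), and DESeq2 put it past the threshold (adjusted p = 0.0203) while edgeR did not (adjusted p = 0.0932).

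PRRX1 had its highest and its lowest level with DMSO in knockout clones. Knockout clone 2-1 averaged 4662 normalized counts, knockout clone 12 averaged 2810 and knockout clone 15 averaged 1094, against 3999 in control clone 3, 2776 in control clone 10 and 2242 in control clone 13. The control clones thus lay inside the knockout range. The log2 fold change was -0.27 with DMSO (SE 0.52, adjusted p = 0.792) and -0.59 with JQ1 (SE 0.57, adjusted p = 0.559).

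JQ1 was compared with DMSO within each clone, which asks how these factors respond to BET inhibition. In knockout clones 3 of the 6 members tested were lower with JQ1, where 30.2% of all genes were lower and 56.5% were called in either direction. In control clones 3 of 6 were lower, where 27.4% of all genes were lower and 52.7% were called in either direction. The 3 were ZEB2, PRRX1 and ZEB1 in both genotypes, and ZEB2 and PRRX1 fell in each of the 6 clones by more than 1 on the log2 scale. Median log2 fold changes of the 6 members were -0.34 in knockout and -0.29 in control clones, against -0.05 and -0.01 over all genes tested.

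ZEB2 with JQ1 ran from 244.1 to 477.2 normalized counts over 8 knockout libraries, and with DMSO from 590.0 to 1368 over 9. Control libraries had 989.1 to 1621 with JQ1 and 3161 to 3868 with DMSO. The treatments did not overlap in either genotype. The log2 fold change was -1.26 in knockout clones (SE 0.11, adjusted p = 4.12e-05) and -1.56 in control clones (SE 0.11, adjusted p = 2.05e-05). By clone it was -1.02, -1.24 and -1.51 in knockout clones 12, 15 and 2-1, and -1.30, -1.66 and -1.72 in control clones 3, 10 and 13.

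PRRX1 stood at 894.9 ± 552.4 normalized counts with JQ1 and 2855 ± 1784 with DMSO in knockout clones, a log2 fold change of -1.74 (SE 0.17, adjusted p = 7.43e-05). Control clones had 1102 ± 135.8 with JQ1 and 3006 ± 900.6 with DMSO, a log2 fold change of -1.41 (SE 0.17, adjusted p = 0.000228). Libraries with JQ1 and DMSO overlapped in the knockout group, where clone 15 with DMSO (1050 to 1128) lay below clone 12 with JQ1 (1278 and 1285), but in no clone taken alone. Knockout clones 12, 15 and 2-1 changed by -1.13, -2.06 and -2.03, and control clones 3, 10 and 13 by -1.67, -1.40 and -1.17.

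ZEB1 changed by -0.39 with JQ1 in knockout clones (SE 0.11, adjusted p = 0.0170) and by -0.32 in control clones (SE 0.11, adjusted p = 0.0393). Knockout clones 12 and 2-1 fell by 0.58 and 0.50 and clone 15 by 0.09, and control clones 3, 13 and 10 fell by 0.60, 0.27 and 0.10. The call in knockout clones was lost without clone 12 (adjusted p = 0.0910) or clone 2-1 (adjusted p = 0.0781), and that in control clones without clone 3 (adjusted p = 0.259, log2 fold change -0.19), without clone 13 (adjusted p = 0.0967), without replicate 1 (adjusted p = 0.0596), when the library that stood apart was included (adjusted p = 0.0846) and, with no filter, when control clone 13 with JQ1, replicate 1, was left out (adjusted p = 0.0548).

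SNAI1, TWIST1 and SNAI2 did not pass the test for JQ1 in either genotype, except that SNAI1 passed in knockout clones without replicate 2 (log2 fold change 0.48, adjusted p = 0.0478). SNAI1 had log2 fold changes of 0.22 in knockout (SE 0.17, adjusted p = 0.300) and 0.25 in control clones (SE 0.17, adjusted p = 0.250), and TWIST1 0.04 in knockout (SE 0.16, adjusted p = 0.868) and -0.26 in control clones (SE 0.16, adjusted p = 0.219). SNAI2 differed in direction between the 2 knockout clones in which it was high. Clone 2-1 had 139.8, 161.9 and 145.8 normalized counts with JQ1, against 272.2, 300.2 and 284.6 with DMSO, and clone 12 had 71.0 and 72.4 with JQ1, against 42.0, 52.0 and 55.1 with DMSO. Neither clone's treatments overlapped, and over the 3 knockout clones the log2 fold change was -0.29 (SE 0.33, adjusted p = 0.484).

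**Figure D2:**
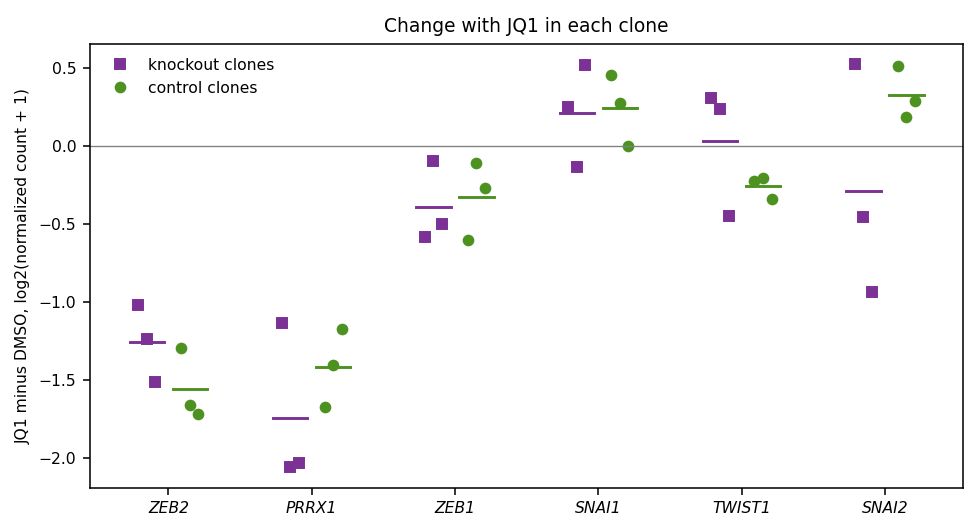
Change with JQ1 relative to DMSO (y axis, difference of mean log2(normalized count + 1)) for the 6 EMT inducers tested (x axis) in each of 3 knockout clones (squares, left) and 3 control clones (circles, right); bars are means over clones. All 6 clones lie below -1 for ZEB2 and PRRX1, and knockout clones lie on both sides of 0 for SNAI1, TWIST1 and SNAI2.

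The difference between the genotypes in JQ1 response was tested itself. It passed for 0 of the 6 members with limma, where 7.35% of all genes passed, and 0 of 6 had an unadjusted p under 0.05. edgeR, which called 6.27% of genes, and DESeq2, which called 11.3%, also called 0 of 6. ZEB2 had a difference, knockout minus control, of 0.30 (SE 0.15, adjusted p = 0.243) and PRRX1 of -0.33 (SE 0.24, adjusted p = 0.425). Without knockout clone 12 the difference of PRRX1 was -0.63 (adjusted p = 0.0386), so the side of the threshold on which PRRX1 falls turns on that clone.

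Clones of 1 genotype were then compared with each other over their 3 DMSO libraries, an F-test whose p-values measure only the spread between libraries of a clone. Among knockout clones 6 of 6 members differed, where 79.5% of all genes did, and among control clones 6 of 6, where 64.4% of all genes did. The span from the lowest to the highest knockout clone, on the log2 scale, was 5.89 for SNAI2, 2.09 for PRRX1, 1.16 for SNAI1, 1.08 for ZEB2, 0.95 for ZEB1 and 0.46 for TWIST1. Among control clones it was 2.45 for SNAI2, 0.83 for PRRX1, 0.80 for SNAI1, 0.63 for TWIST1, 0.42 for ZEB1 and 0.26 for ZEB2. For SNAI2, PRRX1, SNAI1, ZEB1 and ZEB2 the knockout clones spanned the wider range, and for TWIST1 the control clones did. The weakest of these calls was TWIST1 among knockout clones (adjusted p = 0.0222), which was lost without replicate 2 or 3 (adjusted p = 0.137 and 0.0997) and in FPKM (adjusted p = 0.0626). Among control clones the call of SNAI1 was lost without replicate 3 (adjusted p = 0.0830).

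Epithelial regulators were at or near the bottom of the scale. ESRP1 (chromosome 8, 94641074 to 94707466, plus strand) had 13.3, 2.42 and 3.24 normalized counts in knockout clone 12 with DMSO, 33.4, 27.2 and 27.4 in clone 15 and 18.5, 18.1 and 19.8 in clone 2-1. Control libraries with DMSO had 0 to 3.06, so that 8 of the 9 knockout libraries stood above every control library. With JQ1 the knockout libraries had 0 to 4.67, below the DMSO libraries of the same clone in every case. Clone means with DMSO were 18.2 ± 11.5 in knockout and 0.999 ± 0.895 in control clones, and with JQ1 1.53 ± 2.09 in knockout and 1.28 ± 1.10 in control clones. With no filter on low values, limma called ESRP1 higher in knockout clones with DMSO (log2 fold change 3.14, SE 0.72, adjusted p = 0.0391), where 5.46% of 19014 genes were higher, and lower with JQ1 in knockout clones (log2 fold change -2.99, SE 0.46, adjusted p = 0.000677), where 27.9% of these genes were lower. The difference in its JQ1 response between genotypes passed in that fit, knockout minus control, at -2.95 (SE 0.65, adjusted p = 0.0347), where 6.2% of genes passed. Control clones near 0 with DMSO left little room for a fall, so the test cannot tell a differing response from that floor. Control clone 13 with JQ1, replicate 1, had 7.42, the highest control value, and without that library the difference was -2.61 (adjusted p = 0.0414).

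GRHL2 (chromosome 8, 101492432 to 101669726, plus strand) had 13.4, 12.1 and 16.0 normalized counts in knockout clone 2-1 with DMSO, 0 to 2.42 in clone 12 and 0 in all libraries of clone 15, against 0 to 10.3 in control libraries with DMSO. The groups overlapped, and with no filter the log2 fold change was -0.23 (SE 1.07, adjusted p = 0.921). With JQ1 GRHL2 was 0 to 1.89 in knockout and 0 to 2.94 in control libraries. Clone 15, the knockout clone with the most ESRP1, is thus the one with no GRHL2 read. OVOL2 was at most 0.32 FPKM in knockout and at most 0.08 in control libraries over both treatments, and ESRP2 at most 0.16 in knockout and at most 0.15 in control libraries. The library that stood apart held 986.5 normalized counts of GRHL2, 1256 of ESRP1, 3.81 FPKM of OVOL2 and 23.1 FPKM of ESRP2, beside the lung transcripts named above. The other 2 libraries of clone 12 with JQ1 were listed at 0 for GRHL2, ESRP1 and OVOL2 and at 0.05 and 0 FPKM for ESRP2.

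**Figure D3:**
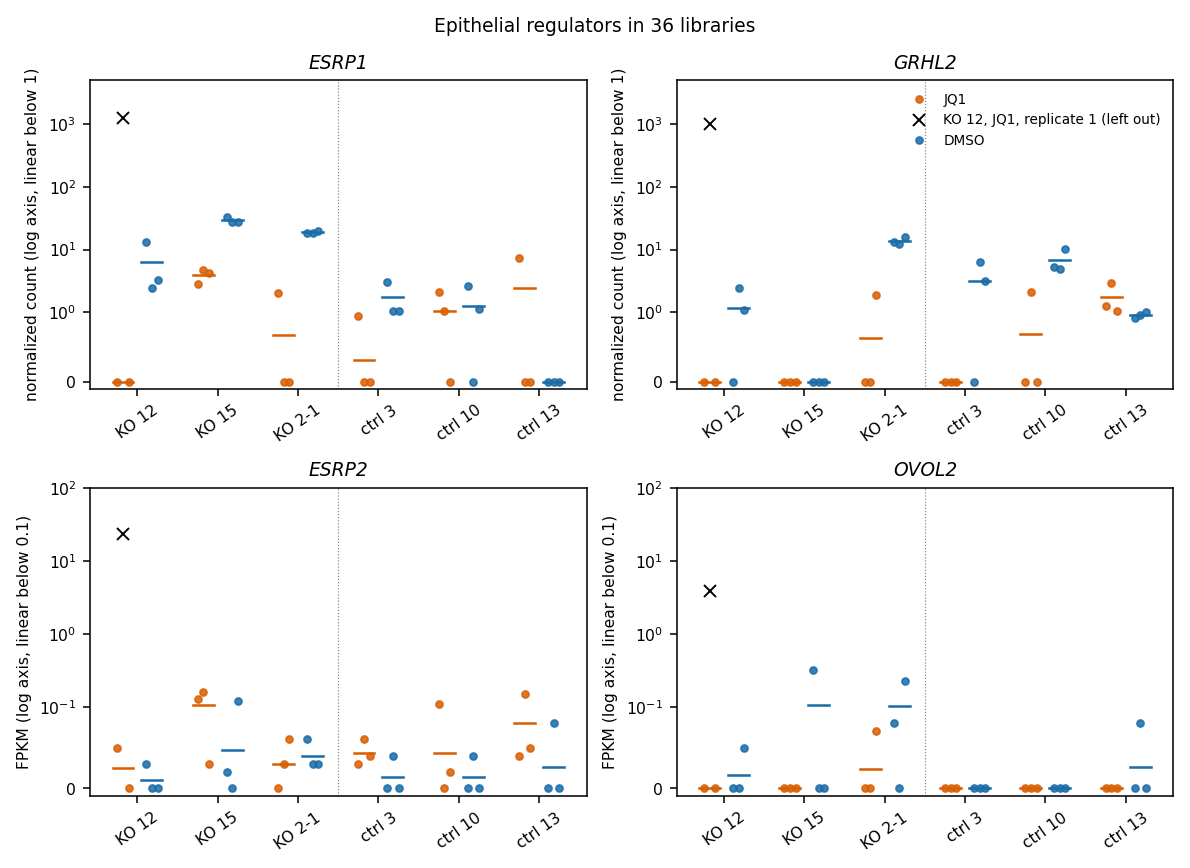
Levels of the 4 epithelial regulators (y axes, normalized counts for ESRP1 and GRHL2 and FPKM for ESRP2 and OVOL2, log axes that are linear below 1 normalized count or 0.1 FPKM) in 36 libraries by clone and treatment; bars are means without the library that stood apart, drawn as a cross. The cross lies at 1256 for ESRP1 and 986.5 for GRHL2, while the other libraries reach 33.4 and 16.0.

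Other genes of the transition were taken from lists. Of the other EMT-inducing factors, 7 of 18 were tested, and with DMSO 2 were higher and 1 lower in knockout clones. Of all genes tested, 6.29% were higher and 6.26% lower in that comparison. FOXC1, a forkhead factor of mesenchyme, averaged 387.2 ± 282.5 normalized counts in knockout and 77.9 ± 16.1 in control clones (log2 fold change 2.10, SE 0.48, adjusted p = 0.0350). SOX4 averaged 1527 ± 119.2 in knockout and 4498 ± 2095 in control clones (log2 fold change -1.47, SE 0.30, adjusted p = 0.0242). With JQ1 SOX4 was higher in knockout clones by 0.90 (SE 0.11, adjusted p = 0.000170), and its response differed between genotypes by 1.04, knockout minus control (SE 0.15, adjusted p = 0.0128). TCF3 and TCF12, E-proteins that pair with helix-loop-helix factors such as TWIST1 and NEUROD1, were lower with JQ1 in both genotypes, by 0.65 and 0.49 in knockout and by 0.56 and 0.52 in control clones on the log2 scale.

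Of 16 other epithelial identity factors, 6 were tested, and 3 were higher in knockout clones with DMSO, where 6.29% of all genes tested were higher. GRHL3, a relative of GRHL2 that drives epidermal barrier formation, averaged 601.0 ± 588.6 normalized counts in knockout clones (1188 in clone 15, 603.9 in clone 12 and 11.0 in clone 2-1) and was listed at 0 in every control library. It passed the filter only through knockout libraries, so its call (adjusted p = 0.0267) compares them with a count of 0. Where limma called 3 of the 6 genes, edgeR called 2, against 11.6% of all genes. KLF5, a factor of basal epithelium, averaged 49.6 ± 38.7 in knockout and 6.31 ± 2.38 in control clones (log2 fold change 2.62, SE 0.63, adjusted p = 0.0411). With JQ1 in knockout clones GRHL3 was lower, by 2.69 on the log2 scale, and KLF5 and GRHL1 were higher, by 1.38 and 0.56.

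Epithelial genes that ZEB1 or GRHL2 are known to control are the readout of both sides. Of 24 listed, 9 were tested, and limma called 0 of 9 between genotypes with DMSO, while 3 of 9 had an unadjusted p under 0.05, edgeR called 0 and DESeq2 called 1. Over all genes tested, limma called 12.5%, edgeR 11.6% and DESeq2 20.9%, and 4387 of 15711 had an unadjusted limma p under 0.05. Their log2 fold changes were all positive, from 0.93 to 2.47 with a median of 1.49, and the summed level of the list was 582.4 to 1197 normalized counts in knockout and 79.1 to 715.9 in control libraries with DMSO. Of the 16 listed genes with a row of normalized counts, 10 averaged at least 10 in knockout and 5 in control libraries with DMSO. Genes high in knockout clones alone could thus pass the filter through them. The filter therefore favours positive values, and the shared direction is a description that cannot decide on genotype. CDH1, the gene of E-cadherin, fell short of the filter and is named after its values were seen. It averaged 186.7 normalized counts in knockout clone 15 with DMSO, 8.76 in clone 12 and 0.314 in clone 2-1, against at most 0.976 in any control library with DMSO. With JQ1 5 of the 9 were lower in knockout clones (30.2% of all genes) and 3 of 9 in control clones (27.4% of all genes), among them SPINT1, a membrane protease inhibitor of epithelia, with log2 fold changes of -1.52 in knockout (SE 0.29, adjusted p = 0.00231) and -1.65 in control clones (SE 0.29, adjusted p = 0.00160).

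Mesenchymal readout genes were tested for 15 of 16, and with DMSO 6 were higher and 1 lower in knockout clones, with a median log2 fold change of 1.04. Among all genes tested, 6.29% were higher and 6.26% lower. FN1, the gene of fibronectin, averaged 113303 ± 74283 normalized counts in knockout and 2810 ± 938.3 in control clones (log2 fold change 5.14, SE 0.53, adjusted p = 0.00185). COL6A1, a collagen chain, averaged 252.4 ± 234.0 in knockout and 6.34 ± 2.40 in control clones (log2 fold change 4.63, SE 0.86, adjusted p = 0.0169). Its control means (6.34 with DMSO, 8.62 with JQ1) lie below the 10 normalized counts of the filter. The call on COL6A1 thus sets knockout clones, which differ widely, against values near the floor. S100A4, a calcium-binding protein of motile cells, averaged 17.04 ± 10.7 in knockout and 566.4 ± 284.0 in control clones (log2 fold change -5.13, SE 0.66, adjusted p = 0.00449). VIM, the gene of vimentin, named after its values were seen, averaged 49832 in knockout clone 2-1, 4072.5 in clone 12 and 322.2 in clone 15, against 4313, 1294 and 962.4 in control clones 3, 10 and 13 (log2 fold change 1.20, adjusted p = 0.704).

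Of 8 stroma and endothelium markers listed, 7 are in the table and 5 were tested, of which COL1A2 was higher (log2 fold change 2.66, adjusted p = 0.0139) and CDH5 lower (-7.54, adjusted p = 0.0274) in knockout clones with DMSO, while edgeR called 1 of the 5. Over all genes tested, limma called 12.5% and edgeR 11.6% in either direction. Of these stroma and endothelium markers, all 7 in the table enter the sums below. Their summed level was 25585 to 55031 normalized counts in knockout and 7294 to 17626 in control libraries with DMSO. COL1A2 led the sum in knockout clones (20859 ± 7506, against 3546 ± 1753 in control clones), CDH5 led it in control clones (104.6 ± 134.8 in knockout and 5951 ± 2180 in control clones), and the blood marker PTPRC was at most 7.42 in knockout and 22.0 in control libraries with DMSO. Their part in the mesenchymal readouts was not tested. With JQ1 12 of the 15 mesenchymal readouts were lower and 1 higher in knockout clones, where 30.2% of all genes were lower, and 6 were lower and 2 higher in control clones, where 27.4% of all genes were lower. MMP14, a membrane metalloprotease, had a log2 fold change of -2.39 (SE 0.23, adjusted p = 7.13e-05) in knockout clones, and LOX, a collagen crosslinker, one of -1.66 (SE 0.14, adjusted p = 3.72e-05) in control clones. The summed stroma markers with JQ1 were 7975 to 12706 in knockout and 2302 to 6322 in control libraries.

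**Figure D4:**
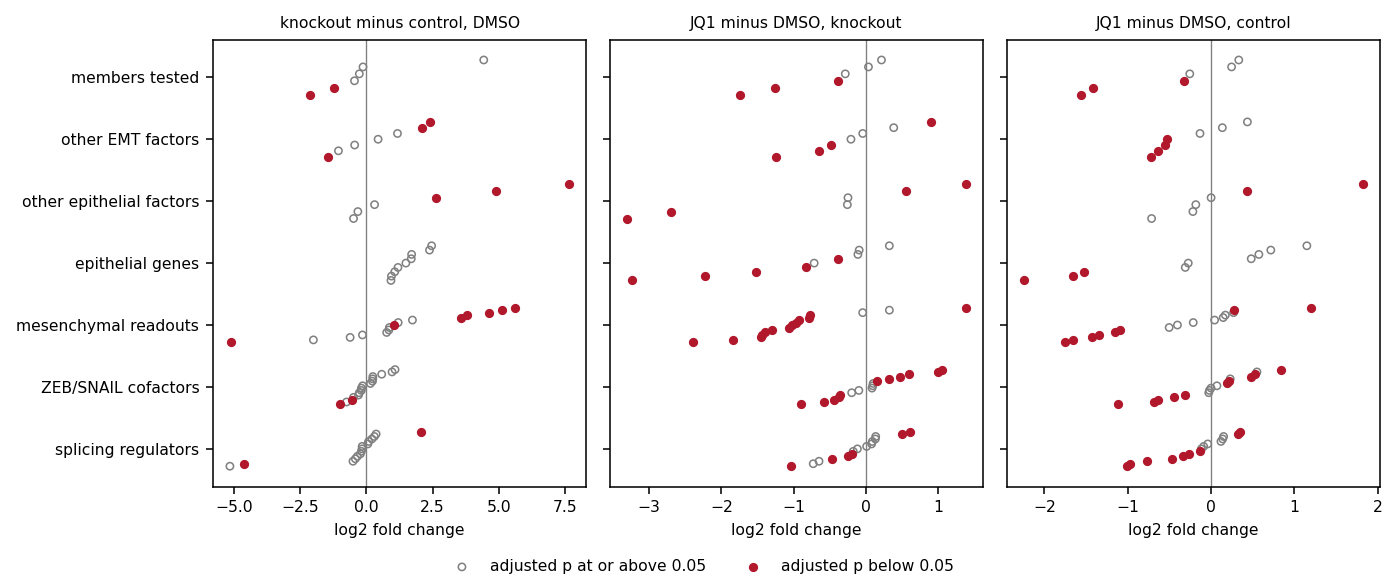
Log2 fold changes (x axes) of the 6 members tested and of the tested genes of 6 related lists (rows), for knockout against control clones with DMSO and for JQ1 against DMSO in each genotype; filled points have an adjusted p below 0.05. In knockout clones with JQ1, 12 of 15 mesenchymal readouts are filled and left of 0, and in the genotype panel the filled members are ZEB2 at -2.12 and TWIST1 at -1.21.

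Pattern likeness was measured as Pearson's correlation of log2(normalized count + 1) over the 12 means of clone and treatment, among 13517 genes, and is a description without a test, since the 12 points share 6 clones. ZEB2 was most like C8orf46 (0.988), PDE1A (0.972) and RP11-395G23.3 (0.970). PRRX1 was most like ARPC3 (0.961), RPL6 (0.941) and VPS45 (0.938), and TWIST1 most like WDR72 (0.968), SLC17A6 (0.966) and HMGN5 (0.965). For SNAI2 the nearest were SEC14L1 (0.983), NBPF10 (0.973) and IFT140 (0.964), of which NBPF10 belongs to a family of near-identical copies whose counts are uncertain. ZEB1 was nearest to ZNF714 (0.934), ARID1B (0.921) and MMS22L (0.913), and SNAI1 to ITGB1BP1 (0.929), CAD (0.905) and FBXO11 (0.897). Between members the highest value was 0.81 for ZEB2 with TWIST1, followed by 0.68 for ZEB2 with PRRX1, and the lowest was -0.69 for SNAI2 with TWIST1.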

How the data were processed

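Levels in 6 H446 clones come from 2 deposited tables; libraries were made with the TruSeq Stranded mRNA kit, per the labels' protocols. The submitters' processing notes name cutadapt, STAR, RSEM and hg19. Versions, order and counting strand were not given in the sources used here. In one deposited table the signal is the authors' normalized count, with each library scaled by 1 DESeq2 size factor, per the deposited table's name. Each column is whole multiples of 1 step (100% of values within 1e-06), so whole reads were recovered for the count tests. A second deposited table holds the authors' RSEM values in FPKM, scaled by gene length and library size.

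Tests used limma 3.58.1 (R 4.3.3, trended prior variance) on log2(normalized count + 1), which understates changes of low genes. Library values were averaged per clone and treatment. Genotype was tested on 3 against 3 clone means. For JQ1 the test took each clone's mean with JQ1 less its mean with DMSO, pooled the spread of the 6 clones, and gave the difference in response from the same model. A gene was tested if 9 or more of 35 libraries had 10 or more normalized counts (15711 genes). Two-sided p-values were adjusted by Benjamini-Hochberg over every gene tested, and 0.05 was the threshold. The members and lists were chosen with earlier results of these data known. From each list up to 4 genes past the threshold with the largest change and a group mean of at least 50 are named, with CDH1 and VIM added after their values were seen; some genes this rule names are counted but not reported here by name. Alternatives were pseudocounts of 0.5 and 5, no filter and a stricter filter (50), equal library totals, TMM, FPKM (offset 0.1), the count tests edgeR 4.0.16 and DESeq2 1.42.0 (whole reads, summed within clone and treatment), libraries as replicates, the library that stood apart included, and each clone or replicate number left out. Leaving out control clone 13 with JQ1, replicate 1, was chosen after its content was seen. The limma and edgeR fits were tried on simulated data for genotype with DMSO, JQ1 in control clones and the difference in response. The DESeq2 fit and the F-test among clones were not scored on such data. Symbols on more than 1 row (62) were kept as separate rows. Figures were drawn with matplotlib 3.10.9.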

Additional observations from a re-analysis of the deposited data

Results flagged for a closer look

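Single libraries of low members lay far from the others of their genotype and treatment in 7 of 40 sets of libraries, by a test of the gap that chance alone meets in about 1 of 20 sets of continuous values. That rate does not hold for sets in which nearly all libraries are at 0, where any single read meets the test, so the 7 are given as values alone. Knockout clone 2-1 with JQ1, replicate 3, had 1.89 normalized counts of GRHL2 and 0.07 FPKM of OVOL2 where the other knockout libraries with JQ1 were at 0. Knockout clone 15 with DMSO, replicate 3, had 0.12 FPKM of ESRP2. Control clone 13 with DMSO, replicate 2, had 0.08 FPKM of OVOL2 and 0.08 FPKM of ESRP2, and its replicate 3 had 7.99 normalized counts of SNAI2. Control clone 13 with JQ1, replicate 1, had 7.42 normalized counts of ESRP1, beside its trace of CEACAM6 and SFTPA2.

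The library left out of the comparisons, knockout clone 12 with JQ1, replicate 1, held member transcripts above the highest control library: 91.9 normalized counts of SNAI2, 986.5 of GRHL2 and 1256 of ESRP1, and 3.81 FPKM of OVOL2 and 23.1 FPKM of ESRP2. The SNAI2 value lies near those of its replicates (71.0 and 72.4).

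ESRP1 passed limma's test of the difference in JQ1 response between genotypes, knockout minus control, with -2.95 on the log2 scale (adjusted p = 0.0347, no filter). JQ1 minus DMSO was -2.99 in knockout and -0.042 in control clones. Control clones held at most 3.06 normalized counts of ESRP1 with DMSO, which leaves little room for a fall. The test therefore cannot tell a differing response from that floor. ESRP1 fell short of the filter, so edgeR and DESeq2 were not run on it.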

How the results depend on the processing

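ZEB2 stayed lower in knockout clones and lower with JQ1, and PRRX1 lower with JQ1, past the threshold in every alternative run. With DMSO, the genes called between genotypes numbered 1971, 3287 by DESeq2 and 1213, 911 and 1122 without control clone 3, 10 or 13; with JQ1 they numbered 1765, 2912 by DESeq2 and 1055, 731 and 1013 without those clones. The difference in JQ1 response was called for 1154 genes, for 1769 by DESeq2, 292 in FPKM, 490 with the library that stood apart included and 111, 12 and 81 without control clone 3, 10 or 13, 214 without knockout clone 15 and 670 to 1092 with 1 replicate number left out.

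The replicate numbers do not pair the samples (median correlation of same-numbered deviations 0.00465 over 187 pairs, 5.88% over 0.1). With libraries as replicates, whose p-values leave out the spread between clones, 11616 genes were called for genotype with DMSO and 11640 with a replicate block, 11535 and 11536 for genotype with JQ1, and 7459 and 7415 for the difference in response. The block added to the tests among clones gave 12482 calls for knockout and 10087 for control clones, against 12494 and 10120 without it.

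Fits in which a value changed sign put it past no threshold. With DMSO and without knockout clone 15, the genotype difference was 0.070 for ZEB1 and 0.31 for PRRX1, and with JQ1 0.14 for PRRX1. JQ1 in knockout clones gave 0.039 for SNAI2 without knockout clone 2-1, -0.00497 to 0.48 for SNAI1 with 1 replicate number left out (-0.00497 without replicate 3, and 0.48 without replicate 2, which passed the threshold, adjusted p = 0.0478), and for TWIST1 -0.027 with equal library totals, -0.082 in FPKM, -0.062 with the library that stood apart, -0.10 without knockout clone 12, -0.069 without knockout clone 15 and -0.064 to 0.14 with 1 replicate number left out (-0.064 without replicate 1). The difference in response was 0.042 for ZEB1 without control clone 10 and 0.027 without knockout clone 12, and for SNAI1 0.012 by edgeR, 0.00756 by DESeq2, -0.26 to 0.21 with 1 replicate number left out (0.21 without replicate 2), 0.074 without control clone 3 and 0.14 without knockout clone 15. The cause of these changes was not tested.

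The normalized counts or FPKM of the 4 epithelial regulators rest on few reads per library. Whether depth or a lack of transcript sets their level was not tested. Having 3 clones per genotype limits every comparison. That holds for SNAI2, SNAI1 and PRRX1, and for TWIST1 and ZEB1, which lost calls when single clones were left out.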

Other observations

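Genes listed as cofactors of ZEB and SNAIL repressors, some of which act on the stability of SNAIL, were tested for 16 of 16. With DMSO 2 of the 16 were called, both lower in knockout clones, the same share as the 12.5% of all genes called in either direction. Over all genes tested, 6.26% were lower. The demethylase KDM1A stood at 6261 ± 1049 normalized counts in knockout and 12393 ± 888.2 in control clones (log2 fold change -0.997, SE 0.16, adjusted p = 0.0103). The remodeller SMARCA4 stood at 3120 ± 75.4 in knockout and 4493 ± 287.4 in control clones (log2 fold change -0.52, SE 0.11, adjusted p = 0.0275). With JQ1, 6 were higher and 5 lower in knockout clones, where 56.5% of all genes were called, and 5 were higher and 5 lower in control clones, where 52.7% were. GSK3B, a kinase that marks SNAIL for degradation, had log2 fold changes of 1.05 in knockout (SE 0.06, adjusted p = 9.82e-06) and 0.84 in control clones (SE 0.06, adjusted p = 2.00e-05), and AJUBA, a LIM-domain partner of SNAIL, -0.90 in knockout (SE 0.14, adjusted p = 0.000930) and -1.11 in control clones (SE 0.14, adjusted p = 0.000335).

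Splicing regulators other than the ESRP genes were tested for 15 of 16 genes. With DMSO the muscleblind gene MBNL2 was higher in knockout clones at 1394 ± 438.5 normalized counts, against 323.4 ± 19.5 in control clones (log2 fold change 2.06, SE 0.25, adjusted p = 0.00376). MBNL3 was lower at 4.30 ± 2.15 in knockout and 192.0 ± 161.7 in control clones (log2 fold change -4.61, SE 1.15, adjusted p = 0.0458). Its knockout means (4.30 with DMSO, 2.51 with JQ1) lie below the normalized count that the filter asks for. The call on MBNL3 thus sets control clones, which differ widely, against values near the floor. With JQ1 PTBP2, a neural splicing repressor, was lower by 1.03 in knockout and by 0.97 in control clones on the log2 scale.

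Antisense and host genes beside the members were read as rows of their own, and since the strand used in counting is not given, reads of an overlapping pair cannot be told apart. ZEB2-AS1 was 0 to 3.05 normalized counts in knockout and 8.88 to 19.1 in control libraries with DMSO, and ZEB1-AS1 was 88.3 to 158.7 in knockout and 117.3 to 245.0 in control libraries. MIR205HG, the host of a microRNA known to target ZEB1 and ZEB2, was 33.8 to 495.4 in knockout and 0 to 3.06 in control libraries with DMSO, and with JQ1 0.941 to 14.1 in knockout and 0 in all control libraries. These ranges were chosen after their values were seen and carry no test.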
